A study of Mus musculus with 10 samples.

Results

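The genes described here mark arterial or venous endothelial cells, the cells that line blood vessels, in the livers of mice given an adenovirus that made VEGF. They are Efnb2, Ephb4, Nr2f2, Gja1, Gja4, Gja5 and Bmx, taken by symbol, so that 7 of the 24016 rows of the expression table were used and each gene had 1 row. Of the 7 genes, 6 had a mean over 0.5 RPKM (reads scaled to transcript length and to the mapped reads of the library) in at least 1 group and were tested among 13933 genes. Bmx did not reach that level.

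RNA was sequenced from the liver of 10 young adult male C57BL/6 mice, 5 per group, on day 6 after injection of virus into the tail vein. AdVEGF mice received a serotype 5 adenoviral vector for VEGF-A165 driven by the CMV promoter, and AdCMV mice received the vector with the CMV promoter and no transgene, so that both groups carried adenovirus. The CMV promoter acts in most cell types, and the RNA came from all cells of livers that had been rinsed of blood by perfusion. Ribosomal RNA was removed before sequencing, and each mouse gave 1 library. Library totals, recovered from the steps of the RPKM values, were 5596564 to 13494001 reads. By these totals 3 reads on a transcript of 1 kilobase came to between 0.222 and 0.536 RPKM.

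Arteries and veins carry blood at different pressures, and their endothelial cells differ in the genes they express from early development on. Ephrin-B2 (Efnb2), a membrane-bound ligand, marks arterial endothelium, and its receptor EphB4 (Ephb4) marks venous endothelium; the pair signals in both directions where cells touch. COUP-TFII (Nr2f2) is a nuclear receptor that holds endothelium in the venous state by repressing Notch signalling. Connexins form gap junctions between neighbouring cells, and connexin 40 (Gja5) and connexin 37 (Gja4) are typical of arterial endothelium, while connexin 43 (Gja1) is shared with smooth muscle and other cells. Bmx is a Tec family tyrosine kinase of arterial endothelium. In the liver, arterial and portal vessels enter at the portal tracts, blood passes through the sinusoids, and it leaves by the central veins.

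The DNA just before the start of transcription is shown for the arterial genes with the largest rise, Efnb2 and Gja5, and for the venous receptor Ephb4. The 250 bases before each start were taken from RefSeq on GRCm38.p6, which is a later build than that of the expression table, and are written on the strand of the gene, 5′ to 3′. All 7 genes were found in that reference. Capitals mark matches to the motifs searched.
Efnb2, chr8:8661243-8661492, minus strand: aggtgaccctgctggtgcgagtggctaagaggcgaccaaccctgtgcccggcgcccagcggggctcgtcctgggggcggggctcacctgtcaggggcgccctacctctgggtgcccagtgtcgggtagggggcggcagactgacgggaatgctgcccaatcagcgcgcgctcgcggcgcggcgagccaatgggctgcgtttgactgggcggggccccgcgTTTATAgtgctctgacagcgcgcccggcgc
Gja5, chr3:97032152-97032401, plus strand: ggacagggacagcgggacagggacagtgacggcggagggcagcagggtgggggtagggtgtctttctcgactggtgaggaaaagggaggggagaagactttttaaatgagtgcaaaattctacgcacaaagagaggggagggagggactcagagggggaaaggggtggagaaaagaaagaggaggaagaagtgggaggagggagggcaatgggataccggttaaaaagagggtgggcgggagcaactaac
Ephb4, chr5:137349859-137350108, plus strand: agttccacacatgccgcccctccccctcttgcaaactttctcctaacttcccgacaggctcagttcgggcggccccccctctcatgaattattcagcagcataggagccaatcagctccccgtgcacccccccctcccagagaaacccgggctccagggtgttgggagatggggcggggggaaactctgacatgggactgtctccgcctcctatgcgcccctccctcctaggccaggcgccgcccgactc

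The motifs searched on both strands were TGGGAA (a core of the RBPJ site of Notch signalling), ACAAT (the core of SOX sites), AGGTCA (the half-site of nuclear receptors) and TATAAA (the TATA box), none of which overlaps another by its letters. TGGGAA was in 21.6% of the 32851 windows of the same length, ACAAT in 27.7%, AGGTCA in 14.0% and TATAAA in 12.4%. The Efnb2 window held TTTATA, the TATAAA letters read on the opposite strand. The windows of Gja5 and Ephb4, like those of Nr2f2 and Gja1, held none of these letters. The Gja4 window held ACAAT, and that of Bmx held TGGGAA and ACAAT on both strands. The windows differed in base composition, with 72.0% G and C in Efnb2, 64.0% in Ephb4 and 56.4% in Gja5, against a median of 52.4% over the windows. The share in Efnb2 was at percentile 93.1 of the windows.

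With VEGF, the arterial ligand Efnb2 and the arterial connexin Gja5 rose by the most, 31.2 and 29.3 times in the ratio of the group means. The connexins Gja1 and Gja4 rose 5.68 and 3.37 times and the venous regulator Nr2f2 2.12 times. The venous receptor Ephb4 was 1.80 times as high in AdVEGF. It had a limma adjusted p of 0.0276 but was not called, since its log2 fold change of 0.93 was under 1. Bmx was at the limit of detection in both groups. Differences were tested with limma on log2(RPKM + 0.1), so that fold changes of low genes are understated, and p-values were adjusted over all 13933 genes. A gene was called when the adjusted p was under 0.05 and the log2 fold change over 1 or under -1. By this rule 5 of the 6 genes were called higher, and 13.0% of all genes tested were called higher. Efnb2 and Gja5 passed the filter on low values only through the AdVEGF group, so this count is a description. For the same 5 genes every AdVEGF mouse lay above every AdCMV mouse, as was so for 14.3% of all genes tested.

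The libraries also differed in how much of them a single gene family took. The major urinary protein (Mup) genes are abundant products of hepatocytes. They made up 18.0% to 50.5% of the reads summed over all rows in AdCMV and 7.84% to 28.6% in AdVEGF. In every library this sum exceeded the recovered library total (10744078 against 9429222 in AdCMV replicate 4), so these are not shares of that total. The median log2 fold change over all genes tested was 0.38. When each library was scaled by median ratios instead, that median was -0.004, and 4 of the 6 genes were called higher against 7.77% of all genes tested. The gene that was no longer called was Nr2f2. Over all genes, 1808 were higher and 214 lower with the deposited values, and 1082 and 438 after median-ratio scaling.

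**Figure D1:**
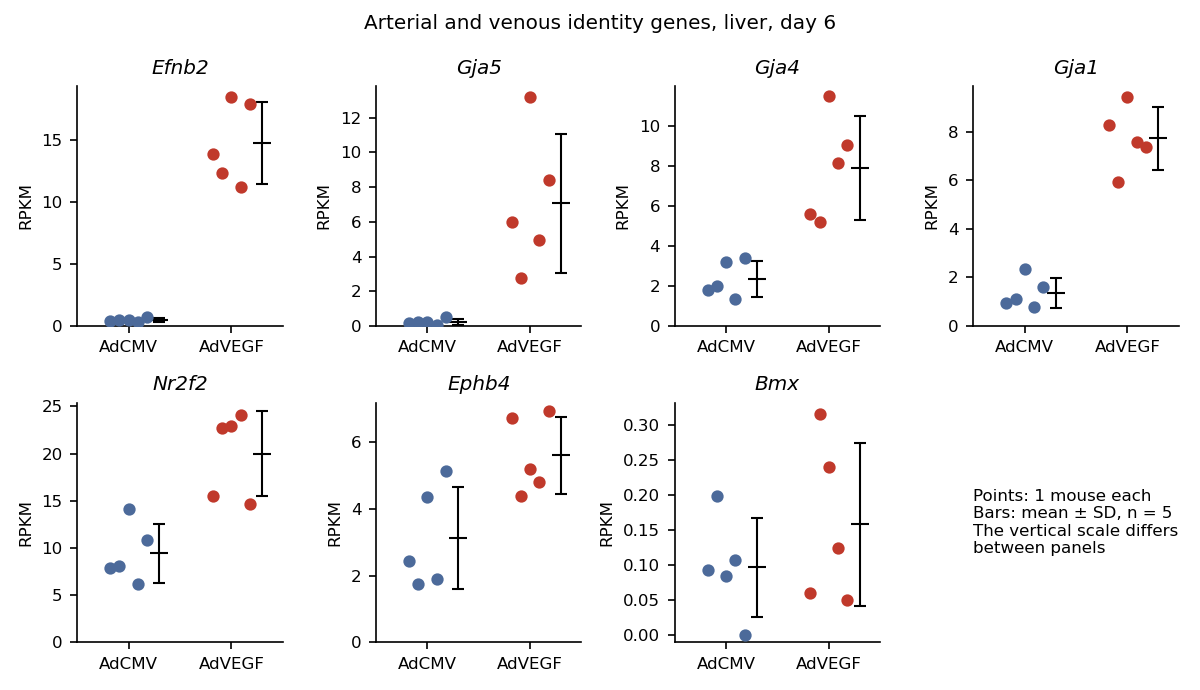
RPKM of each of the 7 genes in each mouse, with AdCMV and AdVEGF side by side and a vertical scale of its own for each gene; points are mice and bars are the mean ± SD (n = 5). The AdVEGF points of Efnb2 and Gja5 lie far above the AdCMV points, those of Ephb4 overlap them, and Bmx stays under 0.5 RPKM in every mouse.

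Efnb2 (NM_010111; mm9 chr8:8617439-8660773, minus strand) was low in every control liver. It measured 0.416, 0.464, 0.441, 0.320 and 0.725 RPKM in AdCMV replicates 1 to 5, from 13 to 27 reads. It measured 13.8, 12.3, 18.4, 11.2 and 17.9 RPKM in AdVEGF replicates 1 to 5, from 335 to 520 reads. The groups were far apart, since the lowest AdVEGF mouse was 15.5 times as high as the highest AdCMV mouse. The group means were 0.473 ± 0.151 and 14.8 ± 3.27 RPKM (SD, n = 5 each). The log2 fold change was 4.70 (SE 0.24, 95% interval 4.20 to 5.21, limma adjusted p = 2.24e-09), and it stood at position 8 of the 13933 genes when ordered by log2 fold change. With median-ratio scaling it was 4.34 (limma adjusted p = 6.17e-08).

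Ephb4 (NM_001159571; mm9 chr5:137791337-137815750, plus strand), the receptor for ephrin-B2, was present at moderate level in both groups. It measured 2.45, 1.74, 4.36, 1.91 and 5.12 RPKM in AdCMV replicates 1 to 5, and 6.72, 4.37, 5.19, 4.79 and 6.91 RPKM in AdVEGF replicates 1 to 5. The groups overlapped, with 3 of 5 AdVEGF mice above every AdCMV mouse. The AdCMV mice with the highest values, replicates 3 and 5, were also those with the smallest Mup shares of their group, 18.0% and 32.4%, and the part of this in their Ephb4 values was not tested. The means were 3.11 ± 1.53 and 5.60 ± 1.15 RPKM (SD, n = 5 each). The log2 fold change of 0.93 (SE 0.29, 95% interval 0.32 to 1.54, limma adjusted p = 0.0276) missed the threshold of size, and it was 0.54 (limma adjusted p = 0.113) with median-ratio scaling. Without AdCMV replicate 3, AdCMV replicate 5 or AdVEGF replicate 2 it was 1.08, 1.14 and 1.01 and Ephb4 was called higher.

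Gja5 (NM_008121; mm9 chr3:96836325-96857557, plus strand), which forms channels of connexin 40, was close to the limit of detection in control livers. It measured 0.177, 0.214, 0.244, 0.068 and 0.501 RPKM in AdCMV replicates 1 to 5, from 2 to 9 reads. It measured 5.99, 2.76, 13.2, 4.93 and 8.43 RPKM in AdVEGF replicates 1 to 5, from 64 to 230 reads. No AdVEGF mouse reached down to the AdCMV range, but the AdVEGF mice differed among themselves more than for any other of the 6 tested genes, with a coefficient of variation of 56.4%. The means were 0.241 ± 0.160 and 7.06 ± 3.98 RPKM (SD, n = 5 each). The log2 fold change was 4.33 (SE 0.40, 95% interval 3.49 to 5.17, limma adjusted p = 6.84e-07), at position 14 of the genes tested.

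Gja4 (NM_008120; mm9 chr4:126988664-126991283, minus strand), which forms channels of connexin 37, was already present in control livers. It measured 1.81, 1.98, 3.17, 1.32 and 3.41 RPKM in AdCMV replicates 1 to 5 and 5.61, 5.20, 11.5, 8.11 and 9.01 RPKM in AdVEGF replicates 1 to 5. The ranges did not overlap, although AdCMV replicates 3 and 5 again stood highest in their group. The means were 2.34 ± 0.904 and 7.88 ± 2.58 RPKM (SD, n = 5 each), which is a log2 difference of 1.73 (SE 0.29, 95% interval 1.13 to 2.33, limma adjusted p = 0.000274). The change was 1.34 with median-ratio scaling (limma adjusted p = 0.000838).

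Gja1 (NM_010288; mm9 chr10:56097106-56110225, plus strand), which forms channels of connexin 43, rose more than Gja4 on the log2 scale. It measured 0.935, 1.12, 2.33, 0.787 and 1.62 RPKM in AdCMV replicates 1 to 5 and 8.27, 5.95, 9.45, 7.57 and 7.38 RPKM in AdVEGF replicates 1 to 5. The lowest AdVEGF mouse, replicate 2, was still well above the highest control, replicate 3. The means were 1.36 ± 0.629 and 7.72 ± 1.28 RPKM (SD, n = 5 each). The log2 fold change was 2.50 (SE 0.27, 95% interval 1.93 to 3.07, limma adjusted p = 3.43e-06). The difference between the changes of Gja1 and Gja4 was not tested.

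The connexins also changed in proportion to each other. Of the summed RPKM of Gja1, Gja4 and Gja5, Gja4 made up 55.2% to 61.9% in AdCMV mice, with a median of 60.8%, and 28.2% to 39.4% in AdVEGF mice, with a median of 36.3%. Gja5 made up 3.12% to 9.06% in AdCMV, with a median of 6.07%, and 19.9% to 38.6% in AdVEGF, with a median of 30.2%. The ranges of the Gja4 and of the Gja5 shares did not overlap between the groups. The share of Gja1 did overlap, at 29.4% to 40.6% in AdCMV and 27.7% to 42.7% in AdVEGF. The sum itself went from between 2.18 and 5.75 RPKM to between 13.9 and 34.1 RPKM.

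Nr2f2 (NM_009697; mm9 chr7:77496836-77505479, minus strand), the venous regulator, was the most abundant of the 7 genes per length in both groups. It measured 7.90, 8.06, 14.2, 6.17 and 10.8 RPKM in AdCMV replicates 1 to 5 and 15.5, 22.7, 23.0, 24.1 and 14.6 RPKM in AdVEGF replicates 1 to 5. The ranges only just separated, with the lowest AdVEGF mouse 1.03 times as high as the highest AdCMV mouse. The means were 9.43 ± 3.13 and 20.0 ± 4.51 RPKM (SD, n = 5 each), and the log2 fold change was 1.10 (SE 0.24, 95% interval 0.60 to 1.61, limma adjusted p = 0.00297). With median-ratio scaling the difference was 0.70 (limma adjusted p = 0.00259), which was under the threshold of size, and without AdCMV replicate 4 it was 0.97. On the median-ratio scale the AdCMV mice spanned 9.29 to 11.5 and the AdVEGF mice 13.3 to 20.1, so that the groups stayed apart.

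Bmx (NM_009759; mm9 chrX:160630774-160696125, minus strand) was read too rarely to be compared. It measured 0.093, 0.199, 0.085, 0.107 and 0 RPKM in AdCMV replicates 1 to 5 and 0.060, 0.316, 0.240, 0.124 and 0.050 RPKM in AdVEGF replicates 1 to 5. These values stand for 15 reads over the AdCMV group and 16 over the AdVEGF group. A count of 3 reads came to between 0.0745 and 0.180 RPKM for this transcript, and a difference between the groups was not detectable at this depth. No transcript of the 7 genes overlapped another row of the table.

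**Figure D2:**
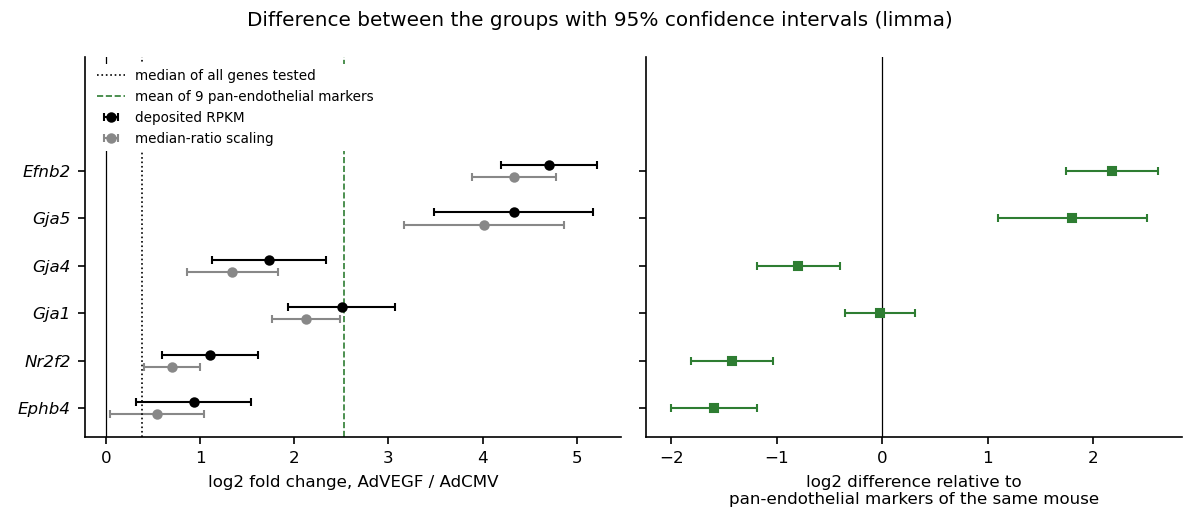
Log2 fold change of AdVEGF against AdCMV with its 95% interval for the 6 tested genes, on the left with the deposited values (black) and after median-ratio scaling (grey), and on the right relative to the 9 pan-endothelial markers of the same mouse; vertical lines mark 0, the median of all genes tested (0.38) and the mean of the markers (2.53). Efnb2 and Gja5 lie to the right of the markers, Gja1 lies on them, and Gja4, Nr2f2 and Ephb4 lie to their left.

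The order of the genes by level per length was different in the groups. In AdCMV the order by mean RPKM was Nr2f2, Ephb4, Gja4, Gja1, Efnb2, Gja5 and Bmx. Among neighbours in it, the ranges over the mice separated only Nr2f2 from Ephb4 and Gja1 from Efnb2, although each gene was above the next in at least 4 of 5 mice. In AdVEGF the order was Nr2f2, Efnb2, Gja4, Gja1, Gja5, Ephb4 and Bmx, so that Efnb2 had moved above Ephb4 and both connexins that were above it. There, only the neighbours Ephb4 and Bmx had ranges that did not overlap, and Gja4 over Gja1, Gja1 over Gja5 and Gja5 over Ephb4 held in only 3 of 5 mice each.

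General endothelial genes were also more abundant in the livers with VEGF. The 9 pan-endothelial markers, among them Pecam1, Cdh5 and Tie1, were all called higher, with a median log2 fold change of 2.61, and their summed level went from between 28.0 and 56.4 RPKM to between 205 and 294 RPKM. In whole tissue, more endothelial cells and more RNA per endothelial cell cannot be told apart. The mean log2(RPKM + 0.1) of these markers was 1.60 ± 0.46 in AdCMV and 4.13 ± 0.15 in AdVEGF (SD, n = 5 each), a difference of 2.53. The log2 fold changes of the single markers ran from 1.43 (Tek) to 3.17 (Esam). This mean was subtracted in each mouse from every gene, and the limma fit was repeated over all genes.

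Relative to these markers Efnb2 and Gja5 were higher and the venous genes Nr2f2 and Ephb4 were lower. Efnb2 was higher by 2.18 on the log2 scale (SE 0.20, 95% interval 1.74 to 2.61, limma adjusted p = 1.25e-07), and Gja5 was higher by 1.80 (SE 0.33, 95% interval 1.10 to 2.51, limma adjusted p = 0.000101). The Gja5 call was lost with a pseudocount of 1 in place of 0.1, where the difference was 0.42 (limma adjusted p = 0.121). By this measure 0.345% of all genes tested were called higher. Efnb2 and Gja5 passed the filter on low values only through the AdVEGF group, so their calls beside that share are a description. Gja1 moved with the markers, with a difference of -0.02 (95% interval -0.36 to 0.31, limma adjusted p = 0.892). Gja4 was at -0.80 (SE 0.18, 95% interval -1.19 to -0.40, limma adjusted p = 0.000809), under the threshold of size. Nr2f2 was lower by a log2 difference of -1.42 (SE 0.18, limma adjusted p = 2.75e-06) and Ephb4 by -1.60 (SE 0.19, limma adjusted p = 1.59e-06). Being lower than the endothelial markers was the rule over the liver, since 92.0% of all genes tested were called lower by this measure, with a median of -2.14. Tek, itself a reference marker, was also called lower, at -1.10 (limma adjusted p = 8.49e-06). The 2 venous genes therefore lay above that median and below the endothelial markers.

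The balance of arterial to venous genes was then read within each mouse. The ratio of Efnb2 to Ephb4 was 0.170, 0.267, 0.101, 0.168 and 0.142 in AdCMV replicates 1 to 5 and 2.06, 2.82, 3.56, 2.35 and 2.59 in AdVEGF replicates 1 to 5. Thus the ligand was below its receptor in all 5 AdCMV mice and above it in all 5 AdVEGF mice. The mean log2 ratio, with 0.1 added to each value, was -2.39 ± 0.50 in AdCMV and 1.38 ± 0.29 in AdVEGF (SD, n = 5 each; two-sided exact permutation test p = 0.00794, adjusted over 4 ratios 0.0159). This p is the smallest that 5 against 5 mice can give. The difference in log2 ratio restates the log2 fold changes of Efnb2 and Ephb4 given above. Efnb2 passed the filter on low values only through the AdVEGF group, so the test is not separate evidence. The log2 difference of 3.77 was 2.66 with 1 added and 4.00 with 0.01 added, since Efnb2 was low in AdCMV.

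The ratio of Efnb2 to Nr2f2 had a lowest, median and highest value of 0.0311, 0.0526 and 0.0669 in AdCMV and 0.467, 0.803 and 1.22 in AdVEGF. The log2 difference was 3.60 (two-sided exact permutation test p = 0.00794, adjusted 0.0159). As above, each ratio restates the fold changes of its genes and is not separate evidence. Ratios with Gja4 moved less. Gja4 to Ephb4 spanned 0.666 to 1.14 in AdCMV and 0.834 to 2.21 in AdVEGF, which overlapped, with a log2 difference of 0.80 (two-sided exact permutation test p = 0.0159, adjusted 0.0212). Gja4 to Nr2f2 spanned 0.215 to 0.314 and 0.229 to 0.615, with a log2 difference of 0.63 (two-sided exact permutation test p = 0.0397, adjusted 0.0397), and its adjusted p rose to between 0.0635 and 0.0794 when AdCMV replicate 1, 3 or 4 or AdVEGF replicate 1, 3, 4 or 5 was left out. The other 4 of the 8 ratios had a gene under 10 reads in the median mouse of a group and were not tested. Of these, Gja5 to Ephb4 spanned 0.0357 to 0.123 in AdCMV and 0.632 to 2.54 in AdVEGF.

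**Figure D3:**
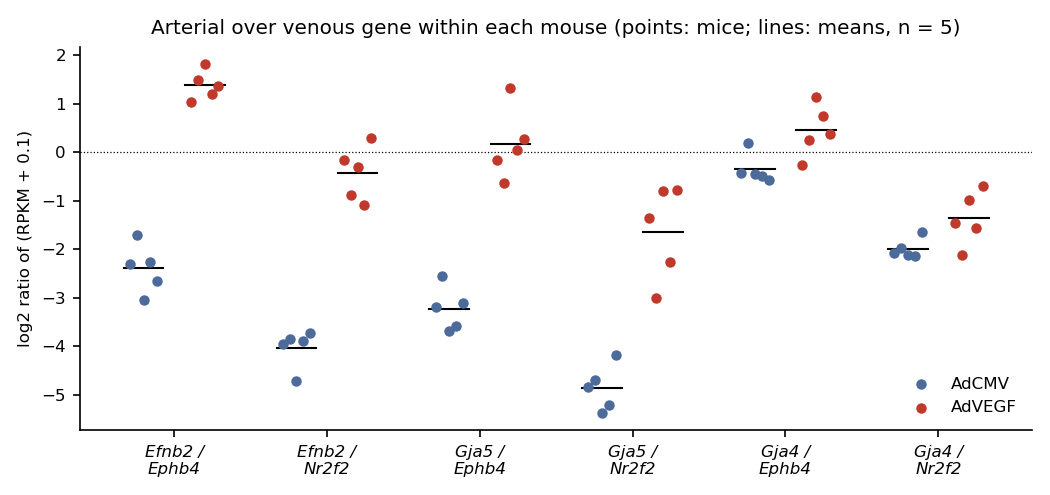
Log2 ratio of Efnb2, Gja5 or Gja4 to Ephb4 or Nr2f2 in each mouse, computed on RPKM + 0.1, with AdCMV in blue and AdVEGF in red; points are mice, short lines are group means (n = 5), and the dotted line at 0 marks equal levels. The Efnb2 to Ephb4 ratio lies below 0 in every AdCMV mouse and above 0 in every AdVEGF mouse.

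Other genes of arterial and venous endothelium were read from lists, with up to 4 named per list by size of change. The lists, like the 7 genes, were drawn up with results of these data known. Some of their genes passed the filter on low values only through the AdVEGF group, among them 5 of the arterial genes, 4 of the venous, 4 of the smooth muscle and pericyte, 1 of the stellate and 3 of the neutrophil genes. The counts of calls and medians over the lists are therefore descriptions, to be set beside the 13.0% of all genes tested that were called higher and their median of 0.38. Of 17 other arterial genes, 15 were tested and 13 were called higher, with a median log2 fold change of 2.46 (12 of 15 and 2.08 with median-ratio scaling). Hey1, a Notch target that specifies arteries, went from 0.0582 ± 0.038 to 6.98 ± 1.23 RPKM, and the Notch ligand Dll4 from 0.837 ± 0.492 to 14.7 ± 2.20 RPKM (SD, n = 5 each). The AdCMV values of Hey1 rest on at most 3 reads per mouse. The transcription factor Sox17 and the chemokine receptor Cxcr4 rose by 3.67 and 4.33 on the log2 scale. Relative to the endothelial markers these same 4 genes were called higher, with limma adjusted p = 0.00112 or less, and 4 others were called lower: Notch1, Fbln5, Cxcl12 and 8430408G22Rik (Depp1), which are named after their values were seen. By this measure 0.345% of all genes tested were called higher and 92.0% lower.

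Of 8 other venous genes, 7 were tested and 5 were called higher, with a median log2 fold change of 1.53 (3 of 7 and 1.23 with median-ratio scaling). The apelin receptor Aplnr was listed at 0 in every AdCMV mouse and at 1.17 ± 0.391 RPKM in AdVEGF (SD, n = 5). Nr2f1, the closest relative of Nr2f2, went from 0.554 ± 0.284 to 2.31 ± 0.286 RPKM, or 1.99 higher on the log2 scale (SE 0.32, limma adjusted p = 0.000228). Flt4, the receptor for VEGF-C, went from 2.54 ± 0.827 to 8.74 ± 1.92 RPKM, and Ackr1, a chemokine receptor of venules, rose by 1.53 (limma adjusted p = 0.0253). The Ackr1 values rest on 0 to 5 reads per AdCMV mouse and 4 to 10 per AdVEGF mouse, and its call was lost with median-ratio scaling (1.23, limma adjusted p = 0.0932). Relative to the endothelial markers Aplnr was called higher, a value that depends on the 0.1 added, and Ackr1, Nrp2, Vwf and Selp were called lower. The last 3 are named after their values were seen. Of all genes tested, 0.345% were called higher and 92.0% lower relative to the markers. Von Willebrand factor (Vwf) measured 0.475 ± 0.213 RPKM in AdCMV and 0.520 ± 0.583 RPKM in AdVEGF.

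**Figure D4:**
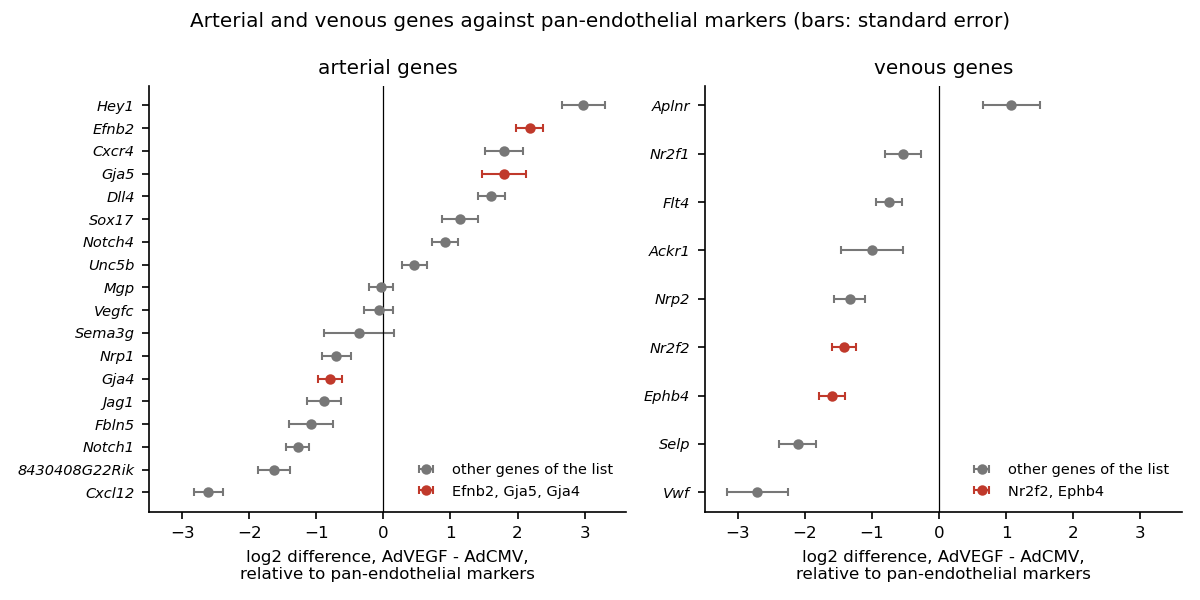
Log2 difference from the pan-endothelial markers, AdVEGF against AdCMV, for Efnb2, Gja5 and Gja4 among the arterial genes (left) and Nr2f2 and Ephb4 among the venous genes (right), in red, with the other tested genes of both lists in grey; bars are standard errors and the line marks 0. Hey1, Efnb2, Cxcr4, Gja5, Dll4 and Sox17 lie above 1, as does Aplnr among the venous genes. Below -1 lie Cxcl12, 8430408G22Rik, Notch1 and Fbln5 among the arterial genes. Among the venous genes Nr2f2, Ephb4, Vwf, Selp, Nrp2 and, just, Ackr1 lie below -1.

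The families to which the 7 genes belong moved unevenly. Among 7 other ephrins, 3 were tested and 2 were called higher: Efnb1, from 5.10 ± 1.32 to 17.3 ± 2.42 RPKM, and Efna1, from 16.9 ± 4.68 to 44.6 ± 12.3 RPKM (SD, n = 5 each), the latter not called with median-ratio scaling. Among 13 other Eph receptors, 3 were tested and only Epha7 was called higher, from 0.287 ± 0.141 to 1.01 ± 0.257 RPKM. Epha7 passed the filter on low values only through the AdVEGF group, so its call is a description. Of all genes tested, 13.0% were called higher with the deposited values and 7.77% with median-ratio scaling. Among the other connexins, Gjc1 went from 3.22 ± 3.00 to 8.47 ± 5.59 RPKM and was called higher (log2 fold change 1.48, limma adjusted p = 0.0309), but not with median-ratio scaling. The hepatocyte connexin Gjb1 was far more abundant than any endothelial connexin, at 213 ± 21.3 and 221 ± 29.7 RPKM, which differed by 0.05 on the log2 scale (limma adjusted p = 0.854). Gjb2, the other hepatocyte connexin, measured 46.3 ± 7.21 and 71.6 ± 11.1 RPKM and was not called. Of 4 other Tec kinases, Tec and Btk were tested and neither was called, at log2 fold changes of -0.15 and 0.25. Of the other COUP-TF receptors Nr2f1 is described above, and Nr2f6 measured 0.29 on the log2 scale and was not called.

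Markers of other cells that express some of these genes moved at the same time. Of 8 smooth muscle and pericyte markers, 7 were called higher, with a median log2 fold change of 2.27, and their summed level was 18.1 to 35.2 RPKM in AdCMV and 86.3 to 231 RPKM in AdVEGF. Acta2, the smooth muscle actin, went from 1.80 ± 0.896 to 29.3 ± 16.4 RPKM. Of 7 hepatic stellate cell markers, 6 were called higher, with a summed level of 76.4 to 119 RPKM against 142 to 296 RPKM. Of all genes tested, 13.0% were called higher, with a median log2 fold change of 0.38. With median-ratio scaling 7 smooth muscle and pericyte markers and 6 stellate cell markers were called higher, against 7.77% of all genes tested. Smooth muscle cells and stellate cells can express Gja1 and Nr2f2. The part of these cells in the levels and ratios of any of the 7 genes was not tested. Of 5 lymphatic markers, 3 were tested and Lyve1, which sinusoidal endothelium also expresses, was called higher, whereas Prox1 was at 0.14 and Mmrn1 was listed at 0 in every mouse. The summed level of the 5 lymphatic markers was 14.8 to 23.4 RPKM in AdCMV and 37.0 to 65.5 RPKM in AdVEGF. The largest means in it were those of Lyve1 (9.8 in AdCMV and 40.2 in AdVEGF) and Prox1 (6.61 and 7.25). Pdpn was at 0.218 and 0.296. Which cells Lyve1 and Prox1 came from was not tested, so the sum is not a measure of lymphatic endothelium.

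Markers of Kupffer cells, neutrophils and epithelial cells were read in the same way, beside the 13.0% of all genes tested that were called higher. Of 7 Kupffer cell markers 2 were called higher, of 6 tested neutrophil markers 3, and of 4 tested cholangiocyte markers 1, which was Spp1, at 35.2 ± 11.3 and 531 ± 174 RPKM. Of 7 hepatocyte markers 2 were called higher with the deposited values and none with median-ratio scaling, by which 1 was lower. The single mesothelial marker tested was not called.

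The genes whose levels followed each of the 6 tested genes most closely over the 10 mice were listed by Pearson r of log2(RPKM + 0.1), as a description, since the mice share library scaling and fall into 2 groups. Efnb2 was most like Sorbs3, Rasgrp3 and Esm1, at r of 0.995, 0.994 and 0.994. After the group means were subtracted these were 0.625, 0.698 and 0.562, so that most of the likeness was the difference between the groups. Gja5 was most like Lamb2, Cyyr1 and Rgs3, at 0.994, 0.985 and 0.985, and at 0.925, 0.818 and 0.808 after subtraction. Gja1 was most like Armcx2, Mcam and Cd38, Gja4 most like Rhob, Cep152 and Cln6, Nr2f2 most like Dnajc10, Tmem106a and Ttpa, and Ephb4 most like Ccdc88c, Atp7a and Wdfy3. For these last 4 genes the values after subtraction lay between 0.907 and 0.978.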

How the data were processed

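RNA from the liver of 10 mice was analysed, 5 per group by the labels. Per the submitters' processing notes the authors mapped reads with TopHat to mm9 and used HOMER, and they deposited RPKM values per RefSeq transcript, scaled only by the library total. Counting settings, strand included, were not given in the sources used here. The deposited table also holds the authors' own comparison, a log2 fold change and an FDR (adjusted p-value), and neither was used. The 5 of 24016 rows with no symbol stayed out of the tests.

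Values were tested as log2(RPKM + 0.1) with limma 3.58.1 (R 4.3.3; lmFit and eBayes with trend, two-sided, Benjamini-Hochberg adjustment) where the mean of either group exceeded 0.5 RPKM. The steps were tested on simulated data. Read numbers and library totals were recovered from the steps of the RPKM values. These give no molecule counts, and limits of 3 reads cover counting error only. Promoter sequences came from RefSeq on GRCm38.p6, and no coordinates were converted between builds.

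Ratios within a mouse were compared by exact permutation (scipy 1.17.1). The 7 genes and all gene lists were chosen with earlier results of these data known. The genes named were the 7, up to 4 per list (those called, by size of log2 fold change, otherwise the most expressed) and the 3 most alike each. Alternatives were other scalings, pseudocounts, filters and tools, a replicate block and leaving out each mouse. Scaling to totals that leave out Mup reads was chosen after seeing the data. Some results of the connexin list are not reported here.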

Additional observations from a re-analysis of the deposited data

Results flagged for a closer look

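Of 30 groups of 5 mice, 2 held a mouse that stood apart from the others in its group, where chance flags about 1 group in 20. The log2 ratio of Efnb2 to Nr2f2 in AdCMV had a gap of 0.773 of its range, above the limit of 0.71, between replicate 3, with a ratio of 0.0311, and the other AdCMV mice, at 0.0519 to 0.0669. That mouse had the highest Nr2f2 level of its group, 14.2 RPKM, and the smallest share of Mup reads, 18.0%. The log2 ratio of Gja4 to Ephb4 in AdCMV had a gap of 0.795 of its range, between replicate 2, with a ratio of 1.14, and the others, at 0.666 to 0.737. That mouse had the lowest Ephb4 level of its group, 1.74 RPKM, and the largest recovered library total. Without these mice the ratios kept their direction and stayed under 0.05 (adjusted exact permutation p = 0.0317 for Efnb2 to Nr2f2 without replicate 3, and 0.0212 for Gja4 to Ephb4 without replicate 2).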

How the results depend on the processing

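The rises of Efnb2, Gja5 and Gja1 stayed past the thresholds under all 20 alternatives, at log2 fold changes of 3.40 to 4.97, 2.57 to 4.87 and 1.91 to 2.71. Gja4 lost its call only when tested against a log2 fold change of 1 (1.73, adjusted p = 0.198). Nr2f2 fell under the thresholds with median-ratio scaling (0.70), upper quartile scaling (0.75), totals that leave out Mup reads (0.69, chosen after seeing the data) and the test against a log2 fold change of 1 (1.10), and ranged over 0.97 to 1.26 when single mice were left out. Ephb4 was called with voom on the recovered reads (1.00, adjusted p = 0.00911) and ranged over 0.76 to 1.14 when single mice were left out. Genes called higher and lower numbered 1082 and 438 with median-ratio scaling, 1125 and 393 with upper quartile scaling, 1059 and 446 without the Mup genes and 503 and 36 in the test against a log2 fold change of 1. With a pseudocount of 1 they numbered 954 and 147, and without single mice 1425 to 2357 and 178 to 225. Relative to the endothelial markers, Efnb2, Ephb4, Nr2f2 and Gja4 stayed on the same side of the thresholds under all 14 alternatives. Gja1 changed sign around 0 with a pseudocount of 0.01 (0.01) and without single mice (-0.07 to 0.06), and Gja5 lost its call with a pseudocount of 1 (0.42, adjusted p = 0.121). The Gja4 to Nr2f2 ratio was 0.38 (adjusted exact permutation p = 0.159) with a pseudocount of 1 and 0.46 to 0.81 without single mice. Where no reason is given above, the cause was not tested. The labels do not say whether replicate numbers pair the mice, and this was not tested. The deviations of same-numbered mice from their group means, over the genes tested, had correlations of 0.00763 to 0.291. These are not correlations of the levels themselves. AdCMV replicates 1, 4 and 5 matched their own number best, and replicates 2 and 3 did not. With the replicate block, 1933 genes were higher and 256 lower, and each of the 6 genes stayed on the same side of the thresholds. The log2 ratio differences with the block were 3.77 for Efnb2 to Ephb4, 3.60 for Efnb2 to Nr2f2, 0.80 for Gja4 to Ephb4 and 0.63 for Gja4 to Nr2f2, where 5 pairs cannot give an exact p below 0.0625. The adjusted p of an exact test that flips the signs of the paired differences was 0.125 for Gja4 to Nr2f2. It was 0.0833 for each other ratio, so none was under 0.05. Depth limits Bmx and the AdCMV values of Gja5, which rest on at most 9 reads per mouse.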

Other observations

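Of 6 genes of the endothelium around the central veins, 4 were tested, with a median log2 fold change of 0.43 against 0.38 over all genes tested. None was called higher, where 13.0% of all genes tested were, and Wnt2, a Wnt ligand made by these cells, was called lower, from 0.745 ± 0.140 to 0.135 ± 0.0786 RPKM (SD, n = 5 each; log2 fold change -1.89, SE 0.39, limma adjusted p = 0.00205). The AdVEGF values of Wnt2 rest on at most 3 reads per mouse, so its fold change depends on the 0.1 added. Rspo3, which strengthens Wnt signals there, measured 2.12 ± 0.280 and 2.74 ± 0.818 RPKM, a log2 difference of 0.32 (limma adjusted p = 0.338). The summed level of the 6 genes was 4.47 to 7.48 RPKM in AdCMV and 4.98 to 8.02 RPKM in AdVEGF. The untested Wnt9b measured 0.143 ± 0.11 and 0.0054 ± 0.0121 RPKM, from at most 9 reads per AdCMV mouse and 1 per AdVEGF mouse. The untested Cdh13 measured 0.184 ± 0.0442 and 0.494 ± 0.471 RPKM. Its groups overlapped, and its AdVEGF values rest on 1 to 24 reads per mouse. Relative to the endothelial markers the 4 tested genes were called lower, as were 92.0% of all genes tested.

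Of 6 genes of the endothelium near the portal tracts, a list that holds Efnb2 and Dll4, 5 were called higher with the deposited values and 3 with median-ratio scaling. Of all genes tested, 13.0% and 7.77% were called higher, and the counts are a description. Efnb2 and Ntn4 passed the filter on low values only through AdVEGF. Ltbp4, a binding protein of latent TGF-beta, went from 2.00 ± 0.953 to 13.0 ± 1.88 RPKM, a log2 fold change of 2.74. The difference between the lists was not tested.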
